A study of Homo sapiens and Mus musculus with 10 samples.

Results

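Accessible regions of unusual width were examined in 10 bulk ATAC-seq libraries. A wide peak was defined as an autosomal peak whose deposited start and end lie at least 1500 bp apart. The 10 lists held 4781 such peaks among 962643 autosomal peaks. The members were chosen by their measured width alone, so widths are given as a description and were not tested. Each list was treated on its own, and replicates were compared afterwards.

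The libraries came from 5 cell lines with 2 replicates each, all unperturbed. GM12878 is a human B-lymphoblastoid line immortalised with Epstein-Barr virus. HEK293T is a human embryonic kidney line that carries viral transforming genes. HFF1 is a human foreskin fibroblast line, and K562 is a human leukaemia line with erythroid features. The mouse embryonic stem cells (mESC) were grown without feeders in a medium with leukaemia inhibitory factor. Per the labels' protocols, all cells were thawed from frozen stocks, lysed in a digitonin buffer and tagmented with Tn5 before nuclei were sorted and amplified. The protocols also give a gel selection of library fragments from 200 to 700 bp. The labels name the replicates of a line but not separate cultures, so every spread between replicates may be technical.

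In ATAC-seq the Tn5 transposase inserts sequencing adapters where chromatin is open. Most enhancers and promoters open over a nucleosome-free stretch no longer than a few nucleosomes, and the peak caller reports each stretch as an interval with a summit. Intervals can be longer where several neighbouring nucleosomes are displaced or mobile. CpG islands, stretches of DNA that keep a high density of unmethylated CG dinucleotides, are the usual sites of open chromatin at housekeeping promoters in mammals.

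The sequences at the summits of a few wide peaks show the base composition that most of the promoter examples share and 2 exceptions. Each is the 300 bp centred on the summit, shortened where needed to the longest stretch without annotated untranslated exon, read from the plus strand 5′ to 3′. Capitals mark every CG dinucleotide. They come from 1 of the 2 regions wide in all human libraries (KIAA2026, GRCh38 chr9:6006940-6007239), from the widest promoter region of each human line that was wide in no other line (ECE1 in GM12878, GRCh38 chr1:21294425-21294642; GPC6 in HEK293T, GRCh38 chr13:93227898-93228197; PTPRK in HFF1, GRCh38 chr6:128520617-128520841; SP3 in K562, GRCh38 chr2:173965374-173965594) and from the widest promoter region of mESC (Chst2, GRCm38 chr9:95407194-95407493). The last 2, at the RNU4-1 gene (GRCh38 chr12:120293046-120293345) and at the start of MIR17HG (GRCh38 chr13:91347327-91347626), are the widest regions of GM12878 and K562 and were added after their values were seen.
KIAA2026: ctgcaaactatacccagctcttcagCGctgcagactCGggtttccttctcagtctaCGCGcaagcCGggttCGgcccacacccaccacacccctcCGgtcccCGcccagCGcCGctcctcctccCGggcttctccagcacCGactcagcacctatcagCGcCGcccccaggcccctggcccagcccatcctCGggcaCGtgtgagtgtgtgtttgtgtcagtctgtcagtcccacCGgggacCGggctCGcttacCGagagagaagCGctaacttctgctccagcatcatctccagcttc
ECE1: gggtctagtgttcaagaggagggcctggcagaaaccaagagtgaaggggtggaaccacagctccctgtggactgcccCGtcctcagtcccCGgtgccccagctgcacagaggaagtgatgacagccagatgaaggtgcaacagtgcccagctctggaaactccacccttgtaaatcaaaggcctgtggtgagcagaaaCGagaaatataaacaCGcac
GPC6: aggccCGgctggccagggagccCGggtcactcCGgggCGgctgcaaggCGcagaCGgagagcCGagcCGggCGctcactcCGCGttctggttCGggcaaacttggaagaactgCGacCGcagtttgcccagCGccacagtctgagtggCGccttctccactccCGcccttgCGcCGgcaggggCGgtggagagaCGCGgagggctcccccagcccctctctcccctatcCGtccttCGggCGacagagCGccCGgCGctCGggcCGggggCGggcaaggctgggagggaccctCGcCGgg
PTPRK: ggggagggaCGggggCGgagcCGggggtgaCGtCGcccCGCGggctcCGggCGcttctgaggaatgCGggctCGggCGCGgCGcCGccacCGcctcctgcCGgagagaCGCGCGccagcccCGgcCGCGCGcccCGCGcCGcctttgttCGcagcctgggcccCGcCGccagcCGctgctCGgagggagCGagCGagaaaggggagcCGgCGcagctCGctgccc
SP3: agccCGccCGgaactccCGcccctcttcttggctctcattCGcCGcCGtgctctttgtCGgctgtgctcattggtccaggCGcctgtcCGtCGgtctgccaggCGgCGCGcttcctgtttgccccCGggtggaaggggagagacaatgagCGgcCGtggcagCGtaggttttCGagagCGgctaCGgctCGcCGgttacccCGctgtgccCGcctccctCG
Chst2: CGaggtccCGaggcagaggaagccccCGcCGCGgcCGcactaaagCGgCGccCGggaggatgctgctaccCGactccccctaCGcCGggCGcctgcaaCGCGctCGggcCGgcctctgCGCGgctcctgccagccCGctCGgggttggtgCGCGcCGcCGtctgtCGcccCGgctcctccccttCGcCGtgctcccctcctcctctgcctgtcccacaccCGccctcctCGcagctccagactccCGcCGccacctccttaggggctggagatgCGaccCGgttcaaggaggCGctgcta
RNU4-1: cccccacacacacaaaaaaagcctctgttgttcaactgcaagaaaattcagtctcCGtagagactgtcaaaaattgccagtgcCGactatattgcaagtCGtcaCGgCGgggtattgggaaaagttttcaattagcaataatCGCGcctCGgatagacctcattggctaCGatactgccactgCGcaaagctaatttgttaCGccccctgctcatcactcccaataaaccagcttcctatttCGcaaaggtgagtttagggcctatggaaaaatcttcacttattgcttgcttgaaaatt
MIR17HG: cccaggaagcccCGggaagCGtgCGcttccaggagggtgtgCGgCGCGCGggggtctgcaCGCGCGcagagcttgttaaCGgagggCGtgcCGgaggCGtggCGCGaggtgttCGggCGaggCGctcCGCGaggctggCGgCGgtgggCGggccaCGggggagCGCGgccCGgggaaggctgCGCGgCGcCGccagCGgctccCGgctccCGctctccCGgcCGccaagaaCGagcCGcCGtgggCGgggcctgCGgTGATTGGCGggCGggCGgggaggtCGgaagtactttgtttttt

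GC content was 64.7% for KIAA2026, 73.7% for GPC6, 80.9% for PTPRK, 68.3% for SP3, 74.3% for Chst2 and 76.0% for MIR17HG. These 6 stretches held between 21 and 46 CG dinucleotides. The ECE1 stretch was the exception among the promoters, with a GC content of 56.0% and 4 CG dinucleotides in 218 bp. The RNU4-1 stretch had the lowest GC content, 44.7%, with 12 CG dinucleotides. Motifs of 8 transcription factor families were searched on both strands. The letters were TGANTCA for AP-1 factors, TGACGTCA for CRE-binding factors and CCGGAAG for ETS factors. For SP/KLF factors they were GGGGCGGGG, for NFY the letters CCAATCA, and for GATA factors the letters AGATAAG. NRF1 and CTCF were searched with longer motifs. Of these only NFY was found in the printed stretches, once, upstream of MIR17HG, where its reverse complement is also in capitals.

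Wide peaks made up between 0.0578% and 0.845% of the autosomal peaks of a library. GM12878 had 348 and 388 of them, HEK293T 41 and 29, HFF1 670 and 462, K562 409 and 357, and mESC 1147 and 930. HEK293T was lowest and mESC highest in both replicates. Their median width lay between 1569 and 1664 bp, against 245 to 326 bp over all autosomal peaks. Most sat close to the threshold, and only 1 or 2 peaks of an HEK293T library, 10 to 24 of another human library and 82 or 118 of an mESC library reached 2000 bp. The widest peak measured 2654 bp in GM12878, 2029 bp in HEK293T, 2710 bp in HFF1, 2494 bp in K562 and 3644 bp in mESC. At the threshold of the first GM12878 library, the promoter peaks of FAM161A and NCL measured 1500 bp and counted, while those of TRIM27 and EPC2 measured 1499 bp and did not.

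**Figure D1:**
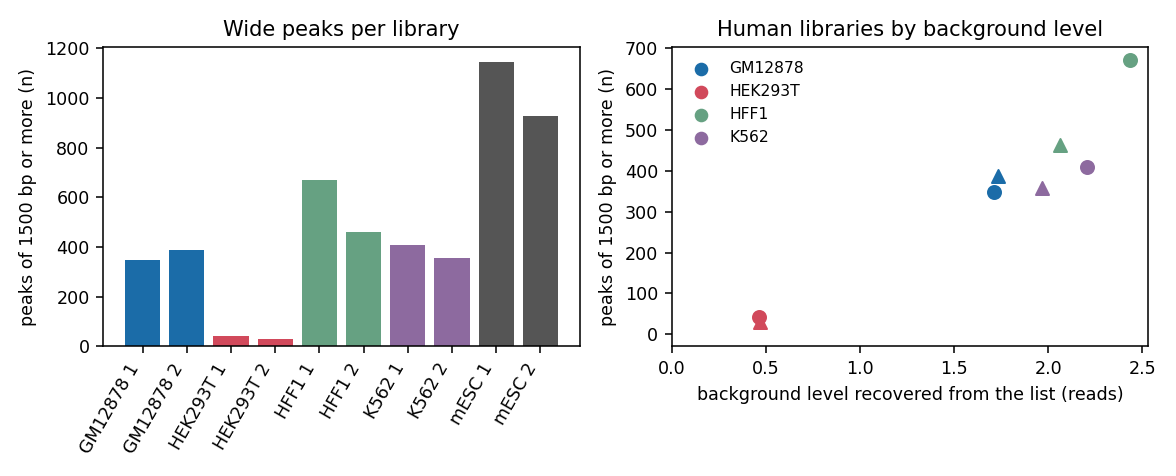
Number of autosomal peaks of 1500 bp or more in each library (left, bars) and the same number against the background level of the 8 human libraries (right, circles replicate 1, triangles replicate 2). HEK293T had the lowest background level and 41 and 29 wide peaks, and within HFF1 and K562 the replicate of higher background level had more wide peaks.

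The number of wide peaks differed along with the depth of a library and the way its list was built, with exceptions. Depth was recovered from each list as a background level, the most frequent local background pileup behind the deposited folds. It was 0.465 and 0.466 in HEK293T, 1.71 and 1.73 in GM12878, 2.43 and 2.06 in HFF1, 2.21 and 1.97 in K562, and 2.91 and 2.86 in mESC. In GM12878, HFF1, K562 and mESC the replicate of higher level also had more wide peaks. HEK293T went the other way by a small margin, and the second HFF1 library had more wide peaks than the first K562 library at a lower level. The smallest distance between neighbouring peaks was 60 to 81 bp in the human lists and 150 and 119 bp in the mESC lists, so the lists do not split neighbouring peaks alike. With all peaks under 150 bp apart joined, an alternative chosen after seeing the data, GM12878 had 599 and 610 wide peaks, HEK293T 92 and 89, HFF1 1165 and 832, K562 678 and 577, and mESC 1147 and 1124. The first HFF1 library then lay above both mESC libraries. Depth and line cannot be told apart for HEK293T, and mESC counts are not compared with human counts below.

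A wide peak was not one of the strongest by fold. The authors' fold of summit over local background had a median of 7.31 to 8.77 in wide peaks and 5.71 to 8.19 in the other peaks. Peaks of 500 to 999 bp and of 1000 to 1499 bp both had a higher median fold than wide peaks in all 10 libraries, for example 10.4 and 9.74 against 8.03 in the first GM12878 library. At most 4.30% of the wide peaks of a library were among the peaks in the highest 10% of its folds. The read pileup at the summit, recovered from the lists, was nevertheless high, with a median of 71 to 122.5 in wide peaks against 16 to 35 in the others. The pileup and the fold therefore ranked the wide peaks differently.

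Most wide peaks lay at promoters, here meaning within 1 kb of the start site of a protein-coding transcript. In GM12878 82.5% and 82.2% did, in HEK293T 100% and 89.7%, in HFF1 88.1% and 89.6%, in K562 94.6% and 93.3%, and in mESC 84.9% and 86.9%. Among the other peaks of the same libraries the share was 14.0% to 32.2%. Averaged over the 5 lines, wide peaks exceeded the others by 68.4 percentage points, in the same direction in 10 of 10 libraries (exact sign-flip permutation test over 5 line means, two-sided p = 0.0625, adjusted p = 0.0667, and 0.0625 is the smallest p that 5 lines allow). A longer interval reaches more start sites by its length alone, so the share was also taken from the summit position. Between 79.3% and 92.7% of wide peaks had their summit within 1 kb of a start site, against 13.3% to 31.6% of the others.

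The promoter share rose with each width class in 9 of 10 libraries. In the first HFF1 library it was 10.4% under 500 bp, 26.0% from 500 to 999 bp, 71.2% from 1000 to 1499 bp and 88.1% above. The exception was the second HEK293T library, where 91.1% of the peaks from 1000 to 1499 bp and 89.7% of the 29 wide peaks were at promoters (Wilson 95% interval of the latter 73.6% to 96.4%, counting error only). HEK293T already had a share of 78.8% and 79.5% from 500 to 999 bp, while mESC had 27.7% and 27.9%. At a given width the classes therefore did not hold the same mix of sites in all lines.

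**Figure D2:**
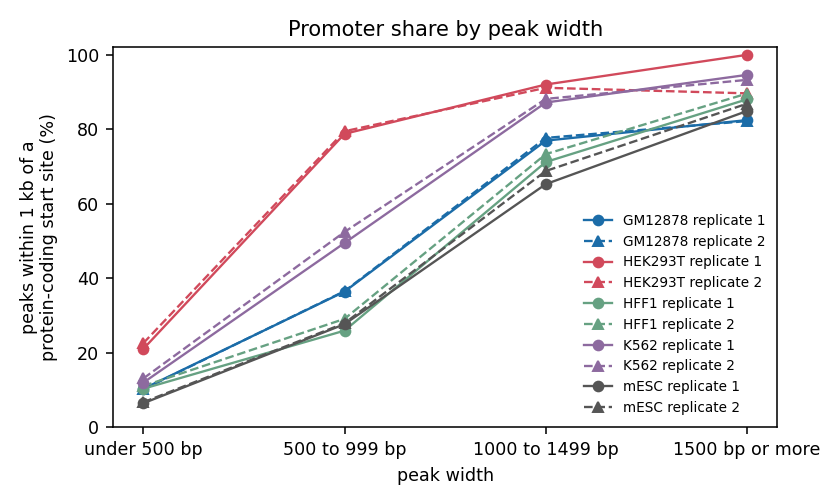
Percentage of autosomal peaks within 1 kb of a protein-coding start site (y) in 4 width classes (x), with 1 line per library (solid, replicate 1; dashed, replicate 2). The share rises to between 82.2% and 100% at 1500 bp or more, and the HEK293T libraries lie highest in the 3 narrower classes.

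The promoter share of wide peaks differed between GM12878, HFF1 and K562 by more than their replicate spread, but the test over all 4 human lines missed the threshold. The line means were 82.3% ± 0.180 (SD, n = 2) in GM12878, 88.8% ± 1.10 in HFF1, 93.9% ± 0.950 in K562 and 94.8% ± 7.31 in HEK293T. The share of variance between lines was 0.780 (exact permutation test over the 105 ways of pairing the 8 libraries, one-sided p = 0.0667, adjusted p = 0.0667). The 2 HEK293T libraries, with 41 and 29 wide peaks, carried most of the replicate spread: without the first the value was 0.985 (exact permutation p = 0.0190), and without the second 0.992 (exact permutation p = 0.00952). For the 500 widest peaks of each library it was 0.959 (exact permutation p = 0.0286), with shares of 83.6% and 83.4% in GM12878, 87.6% and 89.4% in HFF1, 93.8% and 93.2% in K562, and 94.6% and 91.8% in HEK293T. The width of the 500th peak was 1078 and 1068 bp in HEK293T and 1431 to 1555 bp in the other human lines, so these sets differ in width. With the promoter share of wide peaks taken from the summit position, the share of variance between lines was 0.579 (exact permutation p = 0.362).

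Wide peaks were rich in G and C. Their mean GC content was 63.3% and 63.6% in GM12878, 68.4% and 67.2% in HEK293T, 63.8% and 64.1% in HFF1, 66.9% and 66.5% in K562, and 63.3% and 63.5% in mESC. Among the human lines the share of variance between lines was 0.968 (exact permutation test, one-sided p = 0.00952, the smallest that 105 arrangements allow, adjusted p = 0.0333). HEK293T and K562 were above GM12878 and HFF1 in both replicates. Measured only in the 300 bp at the summit, the value was 0.840 and missed the threshold (exact permutation p = 0.0571). HEK293T and K562 were also above GM12878 and HFF1 among narrower peaks. Narrower promoter peaks had 66.3% in both HEK293T libraries, and 64.4% and 64.7% in K562. They had 62.9% in both GM12878 libraries, and 62.4% and 62.7% in HFF1. Peaks under 500 bp had 55.1% and 55.4% in HEK293T, and 52.9% and 53.3% in K562. These had 48.6% and 48.5% in GM12878, and 48.4% and 48.6% in HFF1. Whether the lines differed more in wide peaks was not tested.

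The composition of wide promoter peaks also differed from that of narrower promoter peaks. At promoters, wide peaks had a GC content of 64.7% to 68.4% and narrower peaks 60.2% to 66.3%. The mean difference over lines was 2.75 percentage points, with wide peaks higher in 10 of 10 libraries (exact sign-flip permutation p = 0.0625, adjusted p = 0.0667). Among peaks of 2000 bp or more the direction did not hold in 3 of the 10 libraries. These were the second GM12878 library (-0.44 points, 16 promoter peaks) and both HEK293T libraries (-4.02 and -2.12 points, 2 promoter peaks and 1). For all wide promoter peaks, of 1500 bp or more, the difference was 1.98 ± 0.133 points (SD, n = 2) in HEK293T and 2.11 ± 0.0187 in GM12878. It was 2.54 ± 0.425 in K562, 2.57 ± 0.298 in HFF1 and 4.56 ± 0.128 in mESC. The ratio of observed to expected CG dinucleotides was 0.769 to 0.827 in wide promoter peaks and 0.605 to 0.770 in narrower ones. A peak with a GC content of at least 50% and a ratio of at least 0.6 was called CpG-rich. Between 90.8% and 100% of wide promoter peaks were CpG-rich, against 57.3% to 83.5% of the narrower promoter peaks.

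Motif matches were counted within the 100 bp at the summit. Only exact matches on either strand were counted, and a match is a description, not a binding site. The SP/KLF motif was in 10.6% and 11.1% of wide peaks and 2.67% and 2.59% of all peaks in GM12878, and in 15.2% and 15.7% against 4.14% and 4.46% in K562. Against narrower promoter peaks the difference was smaller, with 15.8% and 16.2% against 13.1% and 13.3% in K562 and 11.5% and 11.3% against 11.1% and 10.6% in GM12878. In HFF1 it was 14.4% and 13.8% against 9.89% and 9.88%. The NFY motif was in 9.30% and 9.61% of wide promoter peaks of K562 and in 4.51% and 4.49% of the narrower ones. In GM12878 it was in 7.67% and 7.84% against 4.13% and 4.37%. HEK293T showed no excess of either motif, with SP/KLF in 9.76% and 7.69% of its 41 and 26 wide promoter peaks against 11.97% and 11.6% of the narrower ones. SP/KLF factors and NFY bind proximal promoters. The ETS motif, also frequent at promoters, was less common in wide than in narrower promoter peaks in 9 of 10 libraries, with 5.43% and 5.41% against 7.84% in both K562 libraries. The exception was the first GM12878 library, with 8.71% against 8.20%.

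Motifs of factors that act largely away from promoters were scarce. The AP-1 motif was in 4.18% and 3.25% of the wide peaks of HFF1 and in 17.8% and 17.7% of all HFF1 peaks. The GATA motif was in 0.244% and 0.560% of the wide peaks of K562 and in 4.29% of all peaks in both K562 libraries. The CTCF motif was in at most 0.773% of the wide peaks of a library and in 3.26% to 7.05% of all peaks. Most wide peaks lay at promoters and most other peaks did not, and against narrower promoter peaks the differences were smaller. AP-1 was in 3.05% and 1.93% of wide promoter peaks of HFF1 and in 5.29% and 5.18% of the narrower ones. CTCF was in at most 0.517% of wide promoter peaks and in 0.989% to 1.42% of the narrower ones. In the distal wide peaks of HFF1, AP-1 matches were at 12.5% and 14.6%, against 20.4% of all distal peaks in both replicates. A single 100 bp window covers a smaller part of a wide peak than of a narrow one.

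Wide promoter peaks extended further into the gene than away from it. Peaks whose promoter windows belonged to 1 gene were measured from the start site nearest the summit. The median extension downstream was 930 and 937.5 bp in GM12878, 891 and 880.5 bp in HEK293T, 934 and 944 bp in HFF1, 957 and 940 bp in K562, and 1039 and 1021 bp in mESC. Upstream it was 684 and 674.5 bp, 722 and 758 bp, 702.5 and 704 bp, 687.5 and 701 bp, and 653 and 647 bp in the same order. The downstream side was the longer one in 54.2% to 72.5% of the peaks of a library. Over line means the median difference averaged 257 bp and was positive in 10 of 10 libraries (exact sign-flip permutation p = 0.0625, adjusted p = 0.0667).

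Narrower promoter peaks were closer to symmetric. For promoter peaks of 500 to 1499 bp the median difference was 8 and 14 bp in GM12878, -1 and 0 bp in HEK293T, 66 and 60 bp in HFF1, 53 and 59 bp in K562, and 162 and 150 bp in mESC. HEK293T rested on 37 and 24 wide peaks. The summit itself stayed near the start site, with its median 39 to 85 bp upstream of it. Measured from the start of the whole gene record instead of the nearest transcript, the mean difference was 568 bp, so the direction held while the size depended on the annotation.

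**Figure D3:**
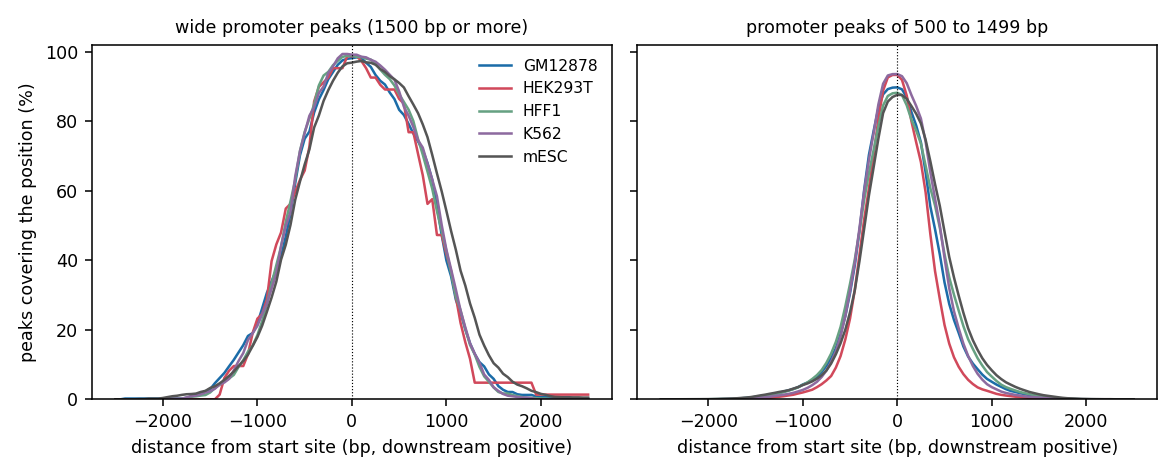
Percentage of promoter peaks that cover each position (y) against the distance from the start site nearest the summit (x, downstream positive), for wide peaks (left) and peaks of 500 to 1499 bp (right), as the mean of both replicates of each line. In the left panel the curves reach further to the right of the start site than to the left, most of all in mESC.

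Every wide peak was found again in the other replicate at some width. This held for 100% of the wide peaks in 10 of 10 libraries, against 79.4% to 89.4% of the other peaks. The mean difference over lines was 14.5 percentage points (exact sign-flip permutation p = 0.0625, adjusted p = 0.0667). It is not particular to the threshold, since 100% of the peaks from 1000 to 1499 bp were found again too. With an overlap of at least 50% of both peaks required, 90.6% to 98.3% of wide peaks were found again. With wide peaks at 100%, no library could have a negative difference, so the test adds nothing to that share. A longer interval is also easier to overlap. Wide peaks were also more significant, with a median −log10 p of 43.8 to 68.5 against 14.7 to 21.4 in the other peaks. The parts of length and significance in this were not tested.

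Width varied between replicates around the threshold. Among wide peaks, 67.2% and 60.3% were also wide in the other replicate in GM12878, 31.7% and 44.8% in HEK293T, 42.7% and 61.9% in HFF1, 60.4% and 69.2% in K562, and 60.3% and 74.4% in mESC. The remainder were mostly a little narrower: the partner peak reached 1000 bp for 82.8% to 96.0% of wide peaks. Of the peaks of 1000 to 1499 bp, by contrast, 1.89% to 5.60% reached 1500 bp in the other replicate. The lowest shares were in HEK293T, the shallowest line, and in the first HFF1 library, which was deeper than the second. With neighbours under 150 bp apart joined, the shares were 50% and 51.7% in HEK293T, 50.5% and 70.7% in HFF1, and 72.1% and 70.8% in GM12878.

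Overlap between replicates of a line exceeded overlap between lines. The Jaccard index, shared over covered base pairs of the wide peaks, was 0.461 between the GM12878 replicates, 0.470 in K562, 0.327 in HFF1 and 0.233 in HEK293T. Between lines it ranged from 0.0192 to 0.184. The mean difference between same-line and different-line pairs was 0.279 (exact permutation test over 105 pairings, one-sided p = 0.00952, adjusted p = 0.0333). Among the different lines, GM12878 and K562 had the highest values, 0.167 to 0.184. All pairs with an HEK293T library were at 0.0531 or below, where the small number of wide peaks bounds the index.

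**Figure D4:**
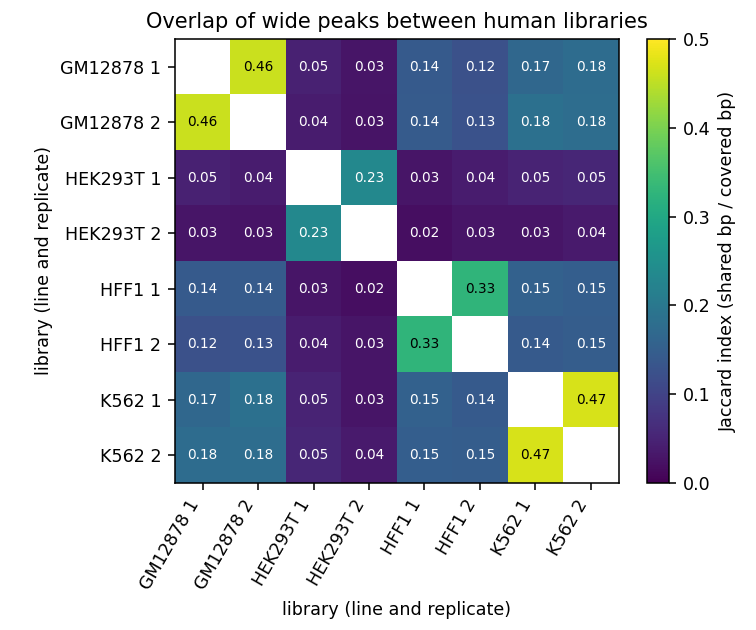
Jaccard index of the wide peaks of each pair of human libraries (colour and printed value). Replicates of 1 line lie between 0.233 and 0.470, and pairs from different lines at 0.184 or below.

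Most sites that were wide in a human library had a peak in all of them, but few were wide in several lines. Merging the wide peaks of the 8 human libraries gave 1391 regions. Of these, 1181 (84.9%) had a peak of some width in all 8 libraries. In contrast, 696 were wide in 1 library only, and 608 were wide in both replicates of at least 1 line. Among the 608, 469 were wide in both replicates of 1 line, 108 of 2 lines, 29 of 3 lines and 2 of all 4. Promoters made up 85.5% of those wide in 1 line and 92.6% of those wide in 2. Even between replicates of 1 line, only 31.7% to 74.4% of wide peaks were wide again. HEK293T had only 41 and 29 wide peaks, which bounds the regions that all lines can share. The share of narrower promoter peaks with a peak in all 8 libraries was not computed.

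A region that was wide in 1 line was usually narrower, not closed, elsewhere. The 234 regions wide in both GM12878 replicates had a median width of 1647 bp there. Their median width was 1304 bp in HFF1 and 1360.5 bp in K562, and 777.5 bp in the shallow HEK293T libraries. The 286 regions of HFF1 went from 1638.5 bp to 1267 bp in GM12878 and 1305.5 bp in K562. The 247 regions of K562 went from 1662 bp to 1348 bp in GM12878 and 1342.5 bp in HFF1. Regions were chosen for being wide in their own line, so a smaller width elsewhere is partly set by the choice.

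Regions without any peak in another human line were rare, and none was at a promoter. There were 2 of 234 in GM12878, 0 of 13 in HEK293T, 6 of 286 in HFF1 and 3 of 247 in K562. The GM12878 ones, named after their values were seen, were GRCh38 chr6:88493403-88495282, 1806 and 1740 bp wide, with CNR1 as the closest coding gene at 327056 bp, and chr5:133824571-133826113, 1502 and 1543 bp wide. The K562 ones were chr12:91633765-91635478 (1689 and 1697 bp), chr1:194858820-194860504 (1678 and 1679 bp) and chr4:126955339-126956884 (1546 and 1541 bp). The first of these overlaps or lies within 1 kb of 2 long non-coding RNA genes. Both replicates agreed closely in width at the K562 regions.

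Genes with a wide promoter peak were counted in each line, requiring it in both replicates. Of 18765 autosomal human protein-coding genes, 232 (1.24%) met this in GM12878, 13 (0.0693%) in HEK293T, 316 (1.68%) in HFF1 and 283 (1.51%) in K562. In mESC it was 694 of 20698 (3.35%). These percentages use the rule itself and serve as the background for the gene lists below. Across human lines, 647 genes (3.45%) were reached in at least 1 line, of which 490 in 1, 119 in 2, 36 in 3 and 2 in all 4. With neighbours under 150 bp apart joined, the numbers were 422, 46, 643, 514 and 769 for GM12878, HEK293T, HFF1, K562 and mESC.

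Some wide promoter peaks lay near the start sites of more than 1 gene. In GM12878, HFF1 and K562, 20.4% to 23.1% of wide promoter peaks lay within 1 kb of the start sites of at least 2 protein-coding genes, against 9.98% to 12.1% of narrower promoter peaks. In mESC the shares were 11.4% and 12.3% against 7.53% and 7.57%. In HEK293T they were 9.76% and 7.69%, below the 12.6% and 12.7% of narrower peaks. A longer interval reaches more start sites, so the share was also taken from the summit alone, a measure added after seeing the data. It was 19.7% to 22.7% against 9.59% to 11.6% in GM12878, HFF1 and K562, and 11.3% and 11.97% against 7.28% and 7.33% in mESC. The pair MBOAT7, a lysophospholipid acyltransferase, and TSEN34, a subunit of the tRNA splicing endonuclease, shared 1 region (GRCh38 chr19:54189227-54191597). It measured 2098 and 2104 bp in GM12878, 1693 and 1690 bp in HFF1, 2328 and 2316 bp in K562, and 1043 and 1078 bp in HEK293T.

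GAB1 and KIAA2026 had a wide promoter peak in all 8 human libraries (0.0107% of genes). GAB1 encodes a docking protein of growth factor receptor signalling. Its peak, in region GRCh38 chr4:143335669-143338029, measured 1804 and 1521 bp in GM12878, 1706 and 1735 bp in HEK293T, 1869 and 2310 bp in HFF1, and 1696 and 1558 bp in K562. The KIAA2026 peak varied little, at 1809 and 1812 bp, 1714 and 1738 bp, 1814 and 1819 bp, and 1802 and 1813 bp in the same order. All 8 values lay between 1714 and 1819 bp, the shallow HEK293T libraries included. Gab1 was wide in both mESC replicates as well.

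Other promoter regions were wide in 2 or 3 lines. DIPK2A was wide in both replicates of 3 lines, with 2443 and 2089 bp in K562, 2005 and 1832 bp in HFF1 and 1711 and 1706 bp in GM12878, and had 1575 and 972 bp in HEK293T. The widest region of ELF2, an ETS family transcription factor, had 1900 and 1922 bp in HEK293T, 2340 and 2131 bp in K562, 1665 and 1114 bp in HFF1 and 1403 and 1406 bp in GM12878. This region was thus wide in both replicates of HEK293T and K562. Counted over all its promoter peaks, ELF2 was wide in both replicates of 3 lines. The translation initiation factor gene EIF4E had 2040 and 2050 bp in HFF1, 1671 and 1686 bp in GM12878, 1985 and 1448 bp in K562, and 1393 and 1701 bp in HEK293T. RAP1GDS1 had 1969 and 2165 bp in HFF1, 1748 and 1588 bp in K562, 1404 and 1538 bp in GM12878, and 1252 and 1289 bp in HEK293T. In K562 and HEK293T the EIF4E replicates fell on different sides of 1500 bp.

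In GM12878 the widest promoter regions included genes that were narrow elsewhere. ECE1, the endothelin-converting enzyme, had an internal promoter peak of 2192 and 2010 bp (GRCh38 chr1:21292987-21295271), against 211 and 205 bp in HFF1, 287 and 292 bp in K562 and none in HEK293T. PPARGC1B, a coactivator of mitochondrial metabolism, had 2233 and 1958 bp, against 464 and 324 bp in HEK293T, 705 and 1363 bp in HFF1, and 1464 and 1312 bp in K562. RBPJ, the DNA-binding effector of Notch signalling, had 2036 and 2071 bp against 813 to 1043 bp in the other 6 libraries. RABEP2 had 2055 and 2041 bp against 665 to 1276 bp. ITGB8, an integrin subunit gene, had 1639 and 2391 bp against 652 to 1283 bp. For all 5 the groups did not overlap, which follows from how these genes were picked.

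The widest GM12878 promoter region was that of WDR74 (GRCh38 chr11:62839278-62842352), a ribosome biogenesis factor, at 1829 and 2594 bp. It also holds RNU2-2P, annotated as a small nuclear RNA gene. The other libraries had peaks of 886 and 1030 bp in HEK293T, 1615 and 1128 bp in HFF1, and 1436 and 1112 bp in K562. MEPCE, which encodes the enzyme that caps 7SK RNA, shared a region with ZCWPW1 and measured 1984 and 2353 bp in GM12878 and 1942 and 1995 bp in K562. It was 1447 and 1279 bp in HFF1 and 840 and 455 bp in HEK293T.

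HEK293T had 13 regions that were wide in both replicates, and all 13 were at promoters. GPC6, which encodes a cell-surface heparan sulfate proteoglycan, led with 2023 and 2007 bp (GRCh38 chr13:93226715-93228740). It had 1083 and 985 bp in HFF1, 916 and 859 bp in K562 and no peak in GM12878. VCAN, the matrix proteoglycan versican, had 2029 and 1744 bp against 480 to 1318 bp elsewhere, with the region starting 829 bp from the start site. MCTP1 had 1524 and 1718 bp against 634 to 1068 bp. ID4, an inhibitor of basic helix-loop-helix factors, had 1610 and 1570 bp, 795 and 679 bp in HFF1 and no peak in GM12878 or K562. These 4 were the HEK293T regions wide in no library of another human line.

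In HFF1 the widest promoter region wide in no other human line was that of PTPRK. PTPRK, a receptor tyrosine phosphatase of cell contacts, had 2242 and 2169 bp (GRCh38 chr6:128519038-128521279) against 470 to 813 bp in the other lines. TPM2, a tropomyosin, had 1994 and 2033 bp against 906 and 440 bp in K562, 173 and 264 bp in HEK293T, and 203 bp in 1 GM12878 library. CAVIN3, a caveolar coat protein, had 1994 and 1968 bp, 799 and 760 bp in GM12878 and no peak in HEK293T or K562. The matrix protein gene THBS1 had 1857 and 1927 bp against 296 to 464 bp. The divergent pair MMS19 and UBTD1 had 1915 and 1871 bp against 841 to 1146 bp, while GNL1 with PRR3 (2339 and 1763 bp) was also wide in both K562 replicates (2135 and 1520 bp).

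In K562 the widest promoter region was that of SP3, a transcription factor that binds GC boxes. It measured 2383 and 2325 bp (GRCh38 chr2:173963610-173965992) against 387 to 1324 bp in the other human libraries. SOCS2, a feedback inhibitor of cytokine signalling, had 2157 and 2150 bp against 763 to 1478 bp. NFE2L2, which encodes the oxidative stress factor NRF2, had 2111 and 2114 bp against 372 to 1278 bp. REV3L, the catalytic subunit of DNA polymerase zeta, had 2184 and 1962 bp against 1201 to 1430 bp. RASGEF1A, a Ras exchange factor, had 1997 and 1978 bp against 731 and 534 bp in HEK293T and at most 385 bp in GM12878 and HFF1.

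In mESC the widest promoter regions were those of Chst2, a carbohydrate sulfotransferase (2549 and 2519 bp), Csf2ra, a cytokine receptor subunit (2504 and 2562 bp), Trhde, a peptidase of thyrotropin-releasing hormone (2465 and 2339 bp), and Klhl29 (2470 and 2313 bp). Their folds differed, from 3.98 and 4.45 for Csf2ra to 6.88 and 7.19 for Chst2. In both replicates each reached at least 2313 bp. Wide regions at promoters numbered 617 of 692 in mESC.

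Genes that mark the identity of a human line had no wide promoter peak in both replicates of that line. None of 20 B-lymphoid genes had a wide promoter peak in both GM12878 replicates, although all 20 had a peak. The same count was 0 of 20 embryonic kidney genes in HEK293T (15 with a peak), 0 of 20 fibroblast genes in HFF1 (20 with a peak) and 0 of 19 erythroid genes in K562 (17 with a peak). With background shares of 1.24%, 0.0693%, 1.68% and 1.51%, less than 1 gene of such a list would be reached at the background rate, so these counts do not set the lists apart. Their median promoter peak widths were 685 bp for the B-lymphoid genes in GM12878, against 817.5 bp over all genes with a peak. They were 624 against 571.5 bp for the kidney genes in HEK293T, 878 against 869.5 bp for the fibroblast genes in HFF1, and 778 against 837.5 bp for the erythroid genes in K562.

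Single members varied widely, and a few came close to the threshold. In GM12878 the widest was IRF4, a factor of B-cell differentiation, at 1206 and 1116 bp, while the B-cell master regulator PAX5 had 325 and 649 bp. In HFF1 fibronectin, FN1, had 1528 and 1443 bp and the collagen gene COL1A1 332 and 884 bp. In K562 the widest were PIM1 at 1347 and 1360 bp and NFE2L1 at 1280 and 1414 bp. ZIC2 led in HEK293T at 1339 and 1099 bp, and its relative ZIC5 had 1072 and 1019 bp there but 1595 and 1669 bp in K562. NFE2L1, from the erythroid list, was wide in both GM12878 replicates (1539 and 1634 bp). These members were named after their values were seen. With neighbours under 150 bp apart joined, HMGA2 in HFF1 and TAL1 and RUNX1 in K562 did have a wide promoter peak in both replicates. That was 1 of 20 genes in HFF1 and 2 of 19 in K562, against 3.43% and 2.74% of all genes with the same joining. In GM12878 and HEK293T the counts stayed at 0 of 20. The counts of 0 in HFF1 and K562 thus depend on how peaks are split.

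**Figure D5:**
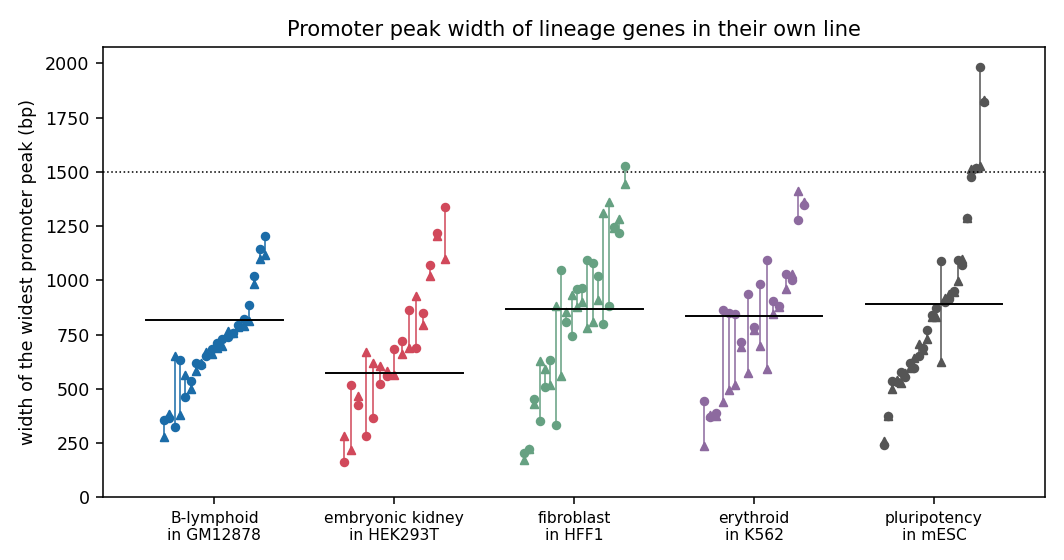
Width of the widest promoter peak (y) of each lineage gene with a peak in both replicates of its own line (circles replicate 1, triangles replicate 2, joined by a line), sorted by mean width. The black bar is the median over all protein-coding genes with a peak in both replicates of that line, and the dotted line is 1500 bp, which only 3 pluripotency genes of mESC passed in both replicates.

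In mESC 3 of 24 pluripotency genes (12.5%, against 3.35% of all genes) had a wide promoter peak in both replicates. These were Tdgf1, a Nodal co-receptor (1823 and 1832 bp), Mycn, a MYC family factor (1983 and 1527 bp), and the DNA methyltransferase gene Dnmt3b (1516 and 1519 bp). Otx2 measured 1476 and 1512 bp. The core factors were narrower, with 871 and 833 bp at Pou5f1, 1073 and 1100 bp at Sox2 and 617 and 596 bp at Nanog. The list's median was 843 bp, below the 890 bp of all genes with a peak, so a few members and not the list as a whole were wide.

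Immediate early genes, which respond within minutes to growth signals, gave a similar picture. EGR1 was wide in both replicates of GM12878 (1653 and 2052 bp) and K562 (1517 and 1529 bp), and Egr1 in mESC (1521 and 1897 bp). In HFF1 EGR1 had 557 and 1060 bp and in HEK293T 1007 and 688 bp. ATF3 was wide in K562 only (1643 and 1558 bp), with 1252 and 1220 bp in GM12878. This came to 1 of 20 genes in GM12878, 2 of 20 in K562, 1 of 20 in mESC and 0 of 20 in HEK293T and HFF1. Over all genes the shares were 1.24%, 1.51%, 3.35%, 0.0693% and 1.68% in the same order, so in a list of 20 genes these counts do not set the list apart.

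Most large gene families had wide promoters at a share near or below that of all genes. Of 80 ribosomal protein genes, only RPL7 in GM12878 was wide in both replicates of a line (1667 and 1614 bp), and none was in HEK293T, HFF1 or K562, nor any of 77 in mESC. In GM12878 that is 1.25%, against 1.24% of all genes. Among 68 replication-dependent histone genes, H1-2 (1746 and 1737 bp), H1-3 (2075 and 2101 bp) and the pair H2AC6 and H2BC4, which share a peak of 1713 and 1671 bp, were wide in GM12878 (5.88% against 1.24% of all genes) and none was in the other human lines. In K562 H1-2 had 1650 and 941 bp. Of 39 HOX genes none was wide in a human line, and Hoxc13 was in mESC (1835 and 1727 bp), or 2.56% against 3.35% of all genes. No olfactory receptor gene was wide in any line, among 380 human and 1085 mouse genes. Few of them had any promoter peak in both replicates, 2 to 15 in a human line and 40 in mESC. Of 466 zinc finger genes, 3 were wide in GM12878, 0 in HEK293T, 9 in HFF1 and 5 in K562, and 12 of 358 (3.35%) were in mESC, shares of 0.644%, 0%, 1.93%, 1.07% and 3.35% that lie near the background.

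Wide peaks away from protein-coding start sites numbered 61 and 69 in GM12878, 0 and 3 in HEK293T, 80 and 48 in HFF1, 22 and 24 in K562, and 173 and 122 in mESC. Their summits were mostly between genes, in 41 of 61 in the first GM12878 library and 20 of 22 in the first K562 library. They were less rich in G and C than wide promoter peaks, with a mean GC content of 53.9% to 60.3% against 64.7% to 68.4%. Between 29.5% and 62.5% of them were CpG-rich outside HEK293T, against 3.80% to 9.31% of the narrower distal peaks of the same libraries. A share lay within 1 kb of the start of a long non-coding RNA gene. It was 63.6% and 54.2% in K562, 31.1% and 34.8% in GM12878, 28.8% and 31.2% in HFF1, and 17.9% and 14.8% in mESC. Among narrower distal peaks of these 4 lines it was 2.63% to 6.66%. Taken from the summit alone, a measure added after seeing the data, it was 12.3% to 59.1% against 2.36% to 6.27%.

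Genes annotated as small nuclear RNA, a class that includes the RNA parts of the spliceosome, recurred among the distal wide peaks of GM12878 and K562. In GM12878 8 of 61 (13.1%) and 5 of 69 (7.25%) lay within 1 kb of the start of an annotated one, against 0.240% and 0.241% of the narrower distal peaks. In K562 it was 4 of 22 (18.2%) and 2 of 24 (8.33%), against 0.233% and 0.246%. The counts were lower in HFF1, with 2 of 80 and 0 of 48, and in mESC, with 2 of 173 and 3 of 122, and HEK293T had 1 of 3 in its second library. Counted from the summit alone they did not change in any library. The differences between lines were not tested. The widest region of GM12878 holds RNU4-2 and RNU4-1, both encoding U4 RNA (GRCh38 chr12:120290653-120293306). It measured 2654 and 2643 bp in GM12878, 2324 and 1497 bp in K562, 1436 and 1008 bp in HFF1, and 781 and 773 bp in HEK293T. Its fold in GM12878 was 4.09 and 4.22. The other 4 such regions wide in both GM12878 replicates, named after their values were seen, held RNU5E-1 with RNU5E-4P (1896 and 1885 bp), RNU4ATAC of the minor spliceosome (1677 and 1884 bp), RNU2-63P (1747 and 1679 bp) and RNU5E-6P (1502 and 1520 bp). RNU5E-4P, RNU2-63P and RNU5E-6P have pseudogene symbols, and the counts include such entries. The regions of RNU2-63P and RNU5E-6P had no other annotated small nuclear RNA start within 1 kb. Small nuclear RNA genes have many near-identical copies, so reads may be assigned to the wrong copy. The mapping filter is not given in the sources used here.

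The widest region of K562 was the start of MIR17HG, the host gene of the miR-17-92 cluster (GRCh38 chr13:91346941-91349434). It measured 2491 and 2494 bp in K562, 736 and 1101 bp in GM12878, 835 and 1110 bp in HEK293T, and 1012 and 810 bp in HFF1. K562 did not overlap the other lines there, which follows in part from picking the region for its width in K562. A second K562 region lay 1003 bp from the start site of KCTD2, just outside the promoter window, at 2129 and 2124 bp. It was also wide in both GM12878 replicates (1743 and 1777 bp). Another K562 region spanned the divergent starts of 2 long non-coding RNA genes on chromosome 7 (chr7:129779286-129781203), at 1888 and 1893 bp, with 865 and 920 bp in HEK293T and no peak in HFF1. In GM12878 a region 4214 bp from SOX4, inside a long non-coding RNA gene, measured 2298 and 1780 bp and was wide in HFF1 too (1560 and 1561 bp), and a region 11647 bp from WDFY4 measured 1980 and 1966 bp. The HFF1 counterparts lay in the body of FCRLB (1968 and 1936 bp), at the start of LINC01003 (1779 and 1810 bp) and 107735 bp from REEP3 (1694 and 1867 bp), the last being at least 1467 bp wide in all 8 libraries.

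The widest interval of the series was a mouse region of ribosomal RNA sequence (GRCm38 chr17:39843110-39846756), annotated with the long non-coding RNA gene Gm26917 and an rRNA gene. It measured 3644 and 3601 bp in mESC with a fold of only 2.24 in both replicates, against a median of 7.36 and 7.41 for the wide peaks there. Ribosomal RNA genes occur in many copies, and reads from all copies can collect on the few that are assembled. The next distal mESC regions were 2209 and 2245 bp wide, 11191 bp from Tgif1, and 2157 and 2114 bp wide, 2139 bp from 4632433K11Rik.

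Genes with wide promoters in human lines were often wide in mESC under the same symbol. Of 15152 symbols shared by both annotations, 4.20% were wide in both mESC replicates. The share was 23.2% (49 of 211) for genes wide in GM12878, 54.5% (6 of 11) in HEK293T, 16.3% (46 of 283) in HFF1 and 27.1% (69 of 255) in K562. For genes wide in 3 or 4 human lines it was 35.3% (12 of 34). Same symbol was taken as the match, with no check of orthology, and both sets consist largely of CpG-rich promoters, whose part in the overlap was not tested.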

How the data were processed

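Bulk ATAC-seq peaks were deposited as 1 list per library, with replicates not pooled. Per the submitters' processing notes, cutadapt 3.2, Bowtie2 2.4.2, Picard and MACS2 2.2.7.1 were used with the hg38 and mm10 builds; their settings and the filter on mapping quality are not given in the sources used here. The deposited lists give a peak score, the fold of the summit over local background as a linear ratio, and −log10 p and −log10 q values, all by the authors' peak caller, and every listed peak has a −log10 q of about 2 or more. The deposited score repeats the −log10 q and was not used further.

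Width was taken as end minus start, and an autosomal peak of 1500 bp or more was called wide. Promoters were 1 kb on either side of start sites of protein-coding transcripts in GENCODE 44 (human) and M21 (mouse). GC content and motifs were read from the matching genome with pysam 0.24.0. Pileup and background level were solved from each fold and −log10 p, which succeeded for 100% of peaks. Human lines were compared by the share of variance between lines and by the Jaccard index, each with an exact permutation test over the 105 pairings of 8 libraries. Wide and other peaks were compared by an exact sign-flip test over 5 line means. P-values from these 7 tests were adjusted by the Benjamini-Hochberg method (python 3.11.15, numpy 2.4.6, pandas 2.3.3, scipy 1.17.1, statsmodels 0.14.6). Interval overlap, the Jaccard index, promoter position, extension, pileup recovery and the permutation test of the share of variance were checked on simulated data. The other measures and tests were not.

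The lists hold peaks and not read totals, so depth is known only as the background level. With 2 libraries per line, the number of lines limits every test, and binomial intervals cover counting error only. Regions named are the 5 widest per line, those wide in all human libraries, the 3 widest distal per line, the 5 widest promoter regions per human line that were wide in no other line, listed genes wide in their own line, and the peaks next to the threshold. The width rule, the members and the gene lists were chosen with earlier results of these data known. Alternatives covered width, splitting of peaks, promoter window, summit position, overlap, significance, the X chromosome and leaving out each library. Peaks on sex chromosomes, the mitochondrial genome and unplaced contigs were left out.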

Additional observations from a re-analysis of the deposited data

Results flagged for a closer look

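Wide peaks on the X chromosome were left out of the comparisons and were looked at because their number passed the 3 counts taken as the limit of a count of 0. GM12878 had 5 and 5 of them, the first HFF1 library 4, K562 7 and 8, and mESC 25 and 20. HEK293T had 0 in both libraries, and the second HFF1 library had 2.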

How the results depend on the processing

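No alternative turned the direction of a mean over lines. Of the values computed, 146 kept their side of the threshold or their size. Another 15 came to pass the threshold, 3 no longer passed it, and 15 counts changed in size. Many of the 146 could not have changed sides, so their number does not measure robustness. The sign-flip tests over line means cannot give a p below 0.0625, so they could not pass at any setting. Leaving out an mESC library could not alter the comparisons of human lines. At 2000 bp or more the GC difference at promoters was 1.79 points (exact permutation p = 0.1875), negative in 3 of 10 libraries. The difference in promoter share between human lines passed the threshold at a width of 1000 bp or more (share of variance 0.993), for the 500 widest peaks (0.959), with peaks under 100 bp (0.897) or 150 bp (0.988) apart joined and with a 2 kb window (0.897). It did not pass when taken from the summit position (0.579, exact permutation p = 0.362) or with a 500 bp window (0.849, exact permutation p = 0.0667). Nor did it with the X chromosome (0.773, exact permutation p = 0.0762) or with HEK293T, HFF1 and K562 only (0.430, exact permutation p = 0.467). Leaving out 1 library at a time gave 0.698 to 0.992, and it passed only without an HEK293T library. The GC difference between lines no longer passed in the 300 bp at the summit (0.840). With HEK293T, HFF1 and K562 only it was 0.948 and the Jaccard difference 0.270, both at p = 0.0667 in the exact permutation test, the smallest p that 6 libraries allow, so these could not pass. Counts per line moved to 4059.5 in GM12878, 766.5 in HEK293T, 5834.5 in HFF1, 3867.5 in K562 and 7438.5 in mESC at 1000 bp or more, and to 15, 1.5, 14.5, 19 and 100 at 2000 bp or more. With peaks under 100 bp apart joined HEK293T had 56.5. With 150 bp, added after seeing the data, GM12878 had 604.5, HEK293T 90.5, HFF1 998.5 and K562 627.5. Fewer or more peaks enter by construction. The cause of the other changes was not tested.

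Between human lines, width deviations of same-numbered replicates were close to uncorrelated over 1181 regions (correlations from -0.0241 to 0.0213). A shift common to all regions of a replicate number cannot be seen in such correlations. The first replicate had more wide peaks than the second in every line but GM12878, so a pairing by replicate number is not excluded. With the replicate block, and with all 10 libraries as separate samples, wide and other peaks differed by 68.4 points in promoter share, 2.75 points in GC content at promoters, 257 bp in extension and 14.5 points in the share found again (exact permutation p = 0.00195 each). Both settings count the replicates of a line as independent samples, although they may be technical. These p-values are therefore too small for a comparison over lines and add no support. Between lines the block gave 0.824 for promoter share (exact permutation p = 0.125), 0.972 for GC content and 0.279 for the Jaccard difference (exact permutation p = 0.0417 each). HEK293T had the fewest wide peaks and the lowest background level, which cannot be told apart from the line.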
